A study of Mus musculus with 8 samples.

Results

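Antigen presentation and immunoproteasome genes were followed as a set of 10 genes: Psmb8, Psmb9, Tap1, B2m, H2-K1, H2-D1, H2-Ab1, H2-DMa, Cd74 and Nlrc5. Every H3K9ac region that the authors' annotation gave to a gene of this set was taken. This gave 8 regions of 7 genes, out of 11251 regions in the table. H2-DMa had 2 regions, and no region carried the name Psmb9, H2-D1 or Cd74. H3K9ac, the acetylated form of lysine 9 of histone H3, marks active promoters and was mapped by chromatin immunoprecipitation with sequencing. The cells were ileal epithelium of wild-type C57Bl/6 mice, isolated at the terminal end, with 3 libraries from mice given 150 mM butyrate for 7 days and 3 from mice given vehicle. Butyrate, which gut bacteria produce from fibre, is a short-chain fatty acid and inhibits histone deacetylases, and the comparison asks how it altered histone acetylation in these cells. The other 2 samples are inputs and were not analysed here. The labels give neither the route of dosing nor the age of the mice, and do not tie libraries to single mice. A p-value here therefore reflects library-to-library spread, pooled in part or whole over regions, which may be technical.

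The proteasome cuts cytosolic proteins into peptides, and interferon replaces its standard catalytic subunits with those of the immunoproteasome, Psmb8 and Psmb9. Tap1 is a subunit of the transporter that carries peptides into the endoplasmic reticulum, where they bind class I molecules made of a heavy chain (H2-K1 or H2-D1) and beta-2 microglobulin (B2m). Class II molecules such as H2-Ab1 present peptides from endocytosed proteins, with Cd74 as the invariant chain and H2-DMa as part of the peptide exchanger. Nlrc5 is the transactivator of class I genes. Epithelial cells of the small intestine carry class I molecules and also class II molecules, which interferon-gamma induces.

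Of the 8 regions, 6 lay on chromosome 17 (mm10), where 5 of the 7 genes with a region fell in a span of 266 kb of the H2 complex, the major histocompatibility complex of the mouse. The B2m region was on chromosome 2 and the Nlrc5 region on chromosome 8. All 8 had their centre within 5 kb of the start site that the authors' annotation assigned. Where no region carried a member's name, start sites were looked up in GENCODE M21 for the same build. The region named Tap1, at chr17:34186758-34189005, held 2 starts of Psmb9 on the minus strand and 2 of Tap1 on the plus strand, so its value is shared by that divergent gene pair. An H2-D1 start lay inside a region named H2-L, whose values are given beside the class I genes. An H2-DMa start lay inside the 8197 bp region named Brd2, and neither of the regions named H2-DMa held a GENCODE start of that gene. The other GENCODE starts of H2-DMa, at 34135628 and 34135654, lay in no region. The nearest region, named H2-DMa, was 8760 and 8786 bp away from them. The nearest region to a Cd74 start was that of Rps14, 27461 bp away.

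The sequence before the start site is shown for the genes whose class I promoter letters can be compared, from RefSeq on GRCm38.p6, which is the mm10 build. RefSeq entries of 7 member genes (B2m, H2-K1, H2-D1, H2-DMa, Tap1, Psmb9 and Psmb8) were searched on both strands over the 250 bases before the start. H2-Ab1, Cd74 and Nlrc5 were not searched, so the motif counts say nothing about these genes. Letters looked for were GAAANNGAA (an interferon regulatory factor element), TTCNNNGAA (a gamma-activated site), TGACGC (the X2 box core of MHC promoters), ATTGG (the Y box, read by NF-Y) and GGGATTCCC and GGGANTTTC (NF-kB). Capitals mark the matches below. The B2m sequence is chr2:122147437-122147686 on the plus strand and the H2-K1 sequence is chr17:34000348-34000597 on the minus strand, both written 5′ to 3′ and ending at the base before the start.
B2m: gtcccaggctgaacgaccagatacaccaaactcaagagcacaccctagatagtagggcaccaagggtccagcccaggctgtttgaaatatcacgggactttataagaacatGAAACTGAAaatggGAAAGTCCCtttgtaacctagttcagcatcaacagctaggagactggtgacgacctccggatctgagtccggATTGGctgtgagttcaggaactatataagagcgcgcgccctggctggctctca
H2-K1: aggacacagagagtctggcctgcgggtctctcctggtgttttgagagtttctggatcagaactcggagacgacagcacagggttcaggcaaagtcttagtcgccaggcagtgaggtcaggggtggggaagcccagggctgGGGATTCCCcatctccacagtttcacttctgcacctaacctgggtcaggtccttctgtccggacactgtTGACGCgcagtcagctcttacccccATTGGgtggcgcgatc
Counting back from the start, B2m held GAAANNGAA at -139 to -131, GGGANTTTC on the minus strand at -125 to -117 and ATTGG at -53 to -49. H2-K1 held GGGATTCCC at -110 to -102, TGACGC at -41 to -36 and ATTGG at -16 to -12. None of these matches overlapped another. GGGATTCCC was rare, in 0.301% of 32851 RefSeq promoter windows of this length and in 0.378% of the 8996 windows that overlapped H3K9ac regions.

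H2-D1 held the same 3 sets of letters as H2-K1, and short stretches of both around these letters are set side by side. Capitals again mark GGGATTCCC in the first pair and TGACGC and ATTGG in the second. The H2-K1 stretches are chr17:34000439-34000467 and chr17:34000359-34000388 on the minus strand, and the H2-D1 stretches are chr17:35262914-35262942 and chr17:35262993-35263022 on the plus strand, in RefSeq GRCm38.p6.
H2-K1, NF-kB letters: cccagggctgGGGATTCCCcatctccaca
H2-D1, NF-kB letters: cccagggctgGGGATTCCCcatctcctca
H2-K1, X2 to Y box: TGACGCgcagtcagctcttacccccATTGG
H2-D1, X2 to Y box: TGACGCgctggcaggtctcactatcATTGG
The first pair shared 28 of 29 bases and the second 23 of 30, including the capitals, which match by selection. When the windows were aligned, 170 bases were identical, 20 mismatched and 120 fell in gaps. Of the aligned bases, 89.5% were identical. Reads of such similar genes may be split between copies by an aligner. How the authors treated such reads is not given in these sources and was not measured here, so values of single class I heavy-chain genes are to be read with that limit.

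Outside the heavy chains, Psmb8 held a TTCNNNGAA match and the Tap1 window an ATTGG match on its minus strand, shown because these genes border each other. The Psmb8 stretch is chr17:34198088-34198116 and the Tap1 stretch chr17:34187322-34187350, both on the plus strand of RefSeq GRCm38.p6, with the matches in capitals.
Psmb8: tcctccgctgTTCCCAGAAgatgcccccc
Tap1: gggctcggctttCCAATcagcggctgcgc
The Psmb8 match lay at -97 to -89. The Tap1 match lay at -222 to -218 from the Tap1 start and at -8 to -4 from the Psmb9 start, because 225 bases separate the starts of this divergent pair. ATTGG was found in 6 of the 7 genes searched and in 33.8% of all windows, TGACGC in 2 of 7 and in 6.12% (11.9% of the windows that overlapped H3K9ac regions), GAAANNGAA in 1 of 7 and in 7.13%, and TTCNNNGAA in 1 of 7 and in 7.02%. GGGANTTTC was found in 1 of 7 genes and in 0.941% of all windows. The member counts are by gene over 9 windows, and a gene counts if any of its windows matched, so they are not like the window shares. The ATTGG matches of Tap1 and Psmb9 are the same bases. A match says only that the letters are present in the window. A missing match says only that these exact letters are absent, since variant forms of an element were not searched.

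The deposited values are RPKM, read densities per kilobase of region that the authors scaled to library size, with an effective size of 17909553 to 22512631 reads in the butyrate libraries and 17846924 to 25805595 reads in the vehicle libraries. A region held a median of 82 to 104 reads in the butyrate libraries and 82 to 120 reads in the vehicle libraries. A change shared by all regions would be removed by such scaling, so every difference here is relative to the other regions. Regions of 11 of 12 epithelial marker genes summed to 45.7 to 51.1 RPKM in butyrate libraries and 48.2 to 52.0 RPKM in vehicle libraries. Of 10 markers of B and plasma cells, 0 had a region within 5 kb of their start, nor did Cd3e, Cd8a, Itgax or Csf1r. Regions were found for 2 of 14 T and NK cell markers, Cd3d and Cd2 (1.81 to 2.05 RPKM in butyrate libraries, 1.95 to 2.65 RPKM in vehicle libraries), 1 of 12 myeloid markers, Fcer1g (1.07 to 1.56 RPKM in butyrate libraries, 0.698 to 1.46 RPKM in vehicle libraries) and 4 of 8 general leukocyte markers, Ptprc, Ikzf1, Laptm5 and Cytip (4.0 to 5.82 RPKM in butyrate libraries, 4.16 to 5.61 RPKM in vehicle libraries). Of 8 stromal and endothelial markers, 1 had a region (0.656 to 1.03 RPKM in butyrate libraries, 0.593 to 1.98 RPKM in vehicle libraries).

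No member region passed the test. With limma on log2(RPKM + 1) and Benjamini-Hochberg adjustment over all 10529 regions with a mean of at least 1 RPKM, 0 of the 7 member regions tested were called at an adjusted p of 0.05, against 0 (0%) of all regions tested. The smallest adjusted p over all regions was 0.486, and 765 regions had an unadjusted p under 0.05. Fitted with voom on the reads recovered from the RPKM values, for regions with at least 25 mean reads, 0 of 5 member regions were called, against 9 of 9048 regions (0.0995%). In the authors' deposited table, 0 of the 8 member regions had a false discovery rate under 0.1, against 28 of 11251 regions (0.249%). Of the 7 member regions, 6 had a higher and 1 a lower mean log2 value in the butyrate libraries, with a median log2 difference of 0.10. The Tap1 region counts as higher at 0.0016, and it and both H2-DMa regions changed sign without vehicle library S1. Of all regions tested, 50% were higher and the median was 0.00. The standard deviation of the log2 differences of single regions was 0.17 over all regions.

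**Figure D1:**
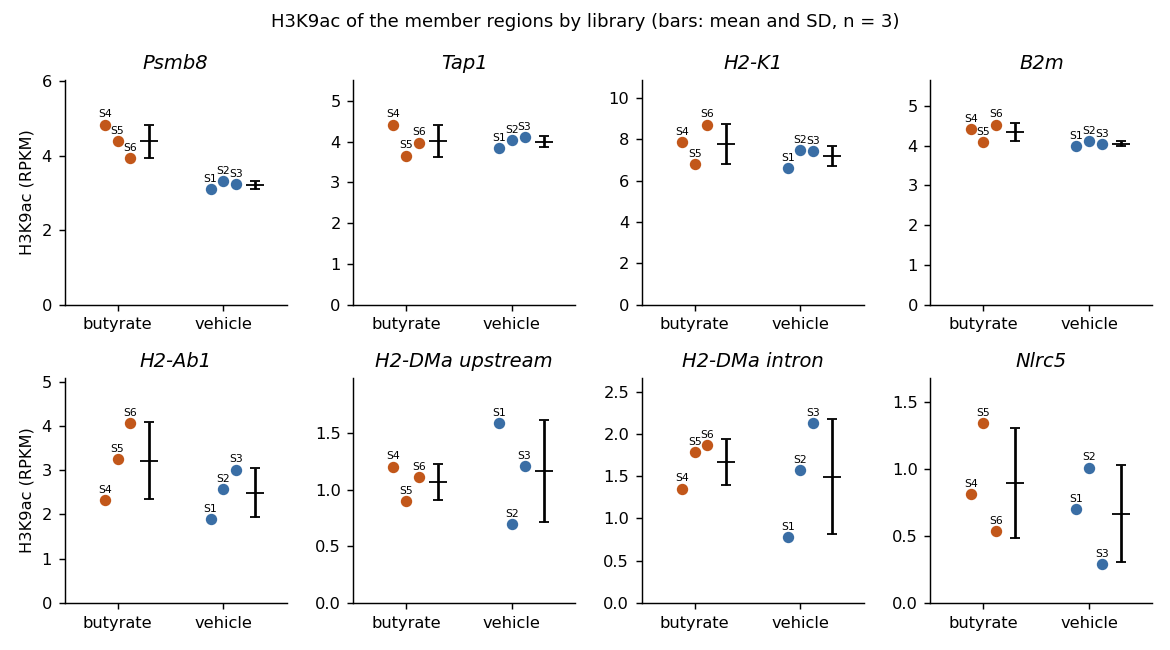
H3K9ac of each member region by library, in RPKM, with butyrate libraries S4 to S6 in orange on the left and vehicle libraries S1 to S3 in blue on the right of each panel. Bars are the mean and SD of the 3 libraries of a group, and each panel has its own scale from 0. In the Psmb8 panel the 3 butyrate libraries, at 3.93 to 4.83 RPKM, lie above the 3 vehicle libraries, at 3.11 to 3.32 RPKM, and in the other 7 panels the groups overlap.

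Psmb8 encodes the inducible chymotrypsin-like subunit of the immunoproteasome, and its region, chr17:34197858-34199191, had the smallest p-value of the members. It covers 1333 bp at exon 1 of 6 and held the RefSeq start, while the nearest GENCODE start lay 69 bp outside it. It had 4.83, 4.40 and 3.93 RPKM in butyrate libraries S4, S5 and S6, against 3.11, 3.32 and 3.23 RPKM in vehicle libraries S1, S2 and S3. All 3 butyrate libraries were above all 3 vehicle libraries, and the butyrate libraries varied more among themselves. The means were 4.39 ± 0.451 RPKM in butyrate libraries and 3.22 ± 0.105 RPKM in vehicle libraries (SD, n = 3 each), a ratio of 1.36. These rest on 366 reads in the butyrate libraries and 275 reads in the vehicle libraries. The log2 difference by limma was 0.35 ± 0.10 (SE), with an unadjusted p of 0.0038 and an adjusted p of 0.57. By p-value it ranked 65th of 10529 regions, in the top 0.617%. With voom the log2 difference was 0.44 ± 0.17 (SE), with an adjusted p of 0.35, and the authors' deposited table gives 0.45 with a false discovery rate of 0.212.

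Psmb8 was the only 1 of the 7 tested member regions in which every butyrate library exceeded every vehicle library, a pattern seen in 643 (6.11%) of all regions tested. It was also the only 1 of 7 that was higher with an unadjusted limma p under 0.05, against 353 (3.35%) of all regions tested. In bulk chromatin, a change in the mark per cell and a change in which cells were present cannot be told apart. The leukocyte markers with a region, 7 of 44 over the B and plasma cell, T and NK cell, myeloid and general leukocyte lists, summed to 8.51, 7.61 and 8.84 RPKM in S4, S5 and S6 and to 7.16, 7.80 and 9.71 RPKM in S1, S2 and S3. The groups overlapped in this sum, and its highest value was in a vehicle library. Apart from Cytip, with a mean of 82.5 reads, the regions in the sum had means of 9.67 to 22.8 reads per library. The sum is therefore imprecise, and a difference in leukocytes was not tested.

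The Tap1 region, next to Psmb8 and shared with the start of the immunoproteasome subunit Psmb9, had nearly equal means in both groups. It covers 2247 bp and had 4.41, 3.65 and 3.97 RPKM in S4, S5 and S6, against 3.85, 4.04 and 4.11 RPKM in S1, S2 and S3. The highest and the lowest library were both butyrate libraries, and the vehicle libraries lay between them. The means were 4.01 ± 0.381 RPKM in butyrate libraries and 4.0 ± 0.137 RPKM in vehicle libraries (SD, n = 3 each). The log2 difference by limma was 0.00 ± 0.10 (SE), with an adjusted p of 1.00 and a 95% interval of -0.21 to 0.21. On the read scale of voom the interval of the ratio was 0.852 to 1.20. The difference between Psmb8 and the Tap1 region in their response was not tested.

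H2-K1, a class I heavy chain, had the densest H3K9ac of the members, ranked 131st of 11251 regions by mean RPKM. Its region, chr17:33998817-34001045, covers 2228 bp at exon 2 of 8. It had 7.87, 6.79 and 8.71 RPKM in S4, S5 and S6, against 6.63, 7.49 and 7.42 RPKM in S1, S2 and S3. The groups overlapped, with S4 and S6 above all vehicle libraries and S5 between them. The means were 7.79 ± 0.963 RPKM in butyrate libraries and 7.18 ± 0.482 RPKM in vehicle libraries (SD, n = 3 each), and the log2 difference by limma was 0.10 ± 0.09 (SE; adjusted p = 0.82). The voom interval of the ratio was 0.960 to 1.25.

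The region named H2-L, which holds the H2-D1 start, was of the same kind. It lies at chr17:35262089-35265068 and ranked 318th by mean RPKM. It had 6.44, 6.41 and 7.53 RPKM in S4, S5 and S6, against 5.66, 6.55 and 6.46 RPKM in S1, S2 and S3. The groups overlapped, the lowest library being S1 and the highest S6, as at H2-K1 for the extremes. The limma log2 difference was 0.11 ± 0.09 (SE; adjusted p = 0.79).

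B2m, the light chain of every class I molecule, had the longest member region, chr2:122146924-122150848, of 3924 bp against a median of 1417 bp over all regions. It had 4.42, 4.08 and 4.53 RPKM in S4, S5 and S6, against 3.99, 4.11 and 4.03 RPKM in S1, S2 and S3. S5 lay inside the range of the vehicle libraries and S4 and S6 above it. The means were 4.34 ± 0.232 RPKM in butyrate libraries and 4.04 ± 0.0625 RPKM in vehicle libraries (SD, n = 3 each). The limma log2 difference was 0.08 ± 0.09 (SE; adjusted p = 0.86), and the voom interval of the ratio was 0.945 to 1.23.

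H2-Ab1 is the beta chain of a class II molecule, and relative to its mean its region varied more between libraries of a group than the other member regions above 25 mean reads. The region, chr17:34262713-34265140, covers 2427 bp in intron 1 of 5 and holds the gene's own start. It had 2.32, 3.24 and 4.06 RPKM in S4, S5 and S6, against 1.90, 2.56 and 3.01 RPKM in S1, S2 and S3. The groups overlapped, since S4 was under S2 and S3. The means were 3.21 ± 0.872 RPKM in butyrate libraries and 2.49 ± 0.558 RPKM in vehicle libraries (SD, n = 3 each), a ratio of 1.29. The limma log2 difference was 0.26 ± 0.16 (SE; adjusted p = 0.74), while voom gave 0.38 ± 0.14 (SE) with an unadjusted p of 0.0081 and an adjusted p of 0.376. The voom error rests on spread pooled over the fitted regions, while the limma error also uses the spread of this region.

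Single libraries moved this H2-Ab1 value by more than 1.5 times. The limma difference was 0.12 without S6, 0.13 without S1 and 0.42 without S4. With voom, the adjusted p was 0.072 without S4, 0.862 without S6 and 0.877 without S1. H2-Ab1 and the summed leukocyte markers were both lowest in vehicle library S1. The leukocyte sum was highest in vehicle library S3 and H2-Ab1 in butyrate library S6. Whether leukocytes among the epithelial cells had a part in the H2-Ab1 level was not tested.

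H2-DMa, a chain of the class II peptide exchanger, had 2 short regions with few reads. The upstream region, chr17:34124900-34125461, had 1.20, 0.896 and 1.11 RPKM in S4, S5 and S6, against 1.59, 0.699 and 1.21 RPKM in S1, S2 and S3. The intron region, chr17:34126368-34126868, had 1.35, 1.79 and 1.87 RPKM in S4, S5 and S6, against 0.775, 1.57 and 2.13 RPKM in S1, S2 and S3. In both regions the highest and the lowest library were vehicle libraries, so the butyrate libraries lay inside their range. They rest on means of 13.7 and 16.3 reads per library. The limma log2 differences were -0.05 ± 0.20 (SE; adjusted p = 0.97) upstream and 0.13 ± 0.20 (SE; adjusted p = 0.90) in the intron, and both changed sign without S1. The voom intervals of the ratio were 0.521 to 1.67 upstream and 0.733 to 2.12 in the intron.

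Nlrc5, the class I transactivator, had the weakest member region, ranked 11120th of 11251 by mean RPKM, at chr8:94471849-94472349. That region held no GENCODE start of Nlrc5, the nearest lying 414 bp outside it and the most upstream 37459 bp away. Its mean of 8 reads per library was made up of 9, 12 and 6 reads in S4, S5 and S6, against 9, 9 and 3 reads in S1, S2 and S3. In RPKM these were 0.811, 1.34 and 0.533 in S4, S5 and S6, against 0.698, 1.01 and 0.290 in S1, S2 and S3. The groups overlapped widely. The region was under the mean of 1 RPKM required for the main test. With voom over all regions its log2 difference was 0.43 ± 0.53 (SE; adjusted p = 0.83), with a 95% interval of the ratio of 0.655 to 2.78.

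**Figure D2:**
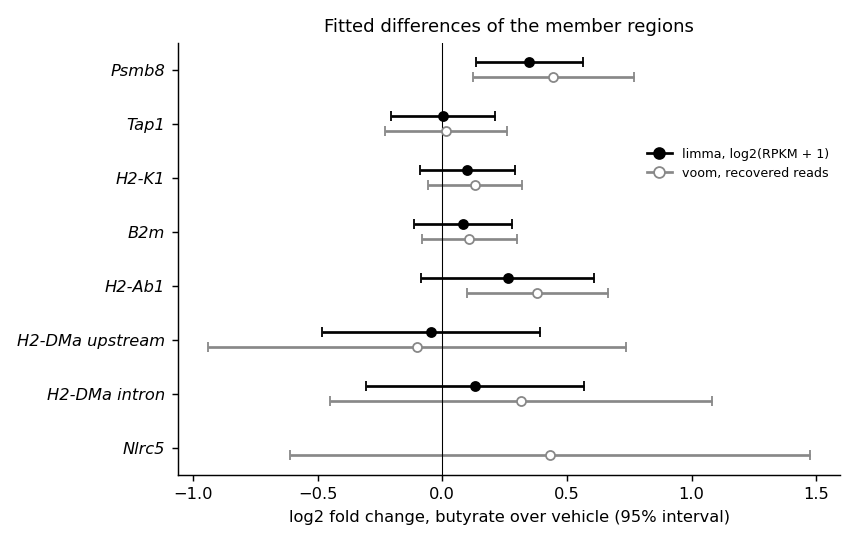
Log2 fold change of each member region, butyrate over vehicle, with 95% intervals, from limma on log2(RPKM + 1) (filled black) and voom on recovered reads (open grey; Nlrc5 has voom alone, being under the RPKM minimum). The Psmb8 intervals lie above 0 by both methods and the H2-Ab1 interval by voom alone, before adjustment over all regions. The H2-DMa and Nlrc5 intervals are the widest.

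The plot of fitted differences sets the precision of the members side by side. The limma intervals of H2-K1, B2m and Tap1, with means of 353, 348.5 and 191 reads per library, reach at most 0.29 on the log2 scale. H2-Ab1, with a mean of 145 reads, had a limma SE of 0.16, against 0.10 for Psmb8 with a mean of 107 reads, so reads alone did not order the errors. The 3 member regions under 25 mean reads, both of H2-DMa and that of Nlrc5, have voom intervals that hold ratios from 0.521 to 2.78 between them. The limma differences are on the log2(RPKM + 1) scale, which understates differences of regions with low RPKM, and the voom values lie further from 0 for all 7 regions tested by limma.

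Levels of H3K9ac per kilobase, averaged over the 6 libraries and taken from high to low, gave the order H2-K1, B2m, Tap1, Psmb8, H2-Ab1, the H2-DMa intron, the H2-DMa upstream region and Nlrc5. From B2m onwards, the library values of each region overlapped those of the next in this order. H2-K1 stood clear of B2m, with its lowest library at 6.63 RPKM and the highest B2m library at 4.53 RPKM. Over all regions the median level was 3.09 RPKM, and 4 of the 8 member regions lay above it.

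**Figure D3:**
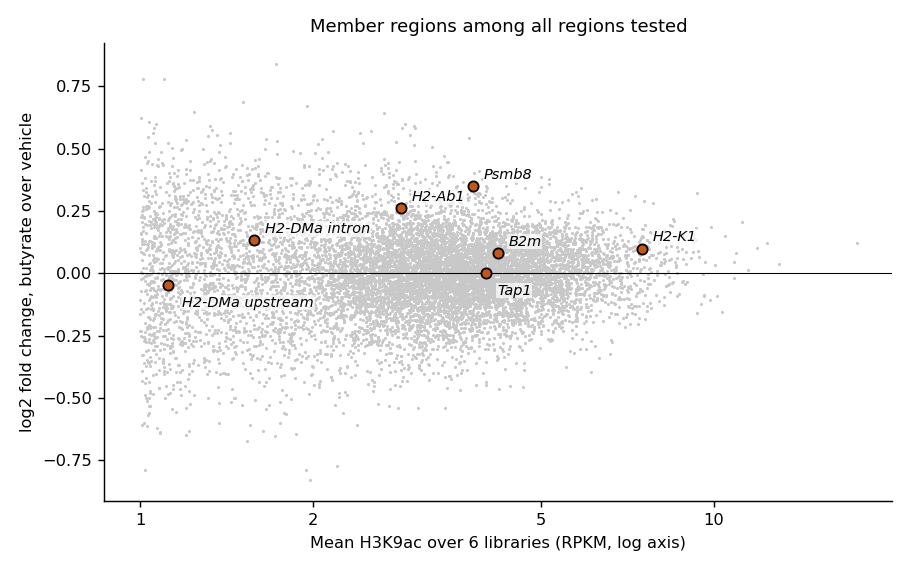
Log2 fold change, butyrate over vehicle, against the mean H3K9ac over the 6 libraries in RPKM on a log axis, for the 10529 regions tested (grey) and the 7 member regions tested (orange). Psmb8, at 0.35, and H2-Ab1, at 0.26, lie towards the upper side of the cloud and the other 5 lie between -0.05 and 0.13.

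The plot against the mean level places the members among all regions. The 5th and 95th percentiles of all log2 differences were -0.27 and 0.27, and Psmb8 was the member outside them. The cloud widens towards low RPKM, where both H2-DMa regions lie.

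Between the outermost member regions of the H2 complex lay 6 regions named for other genes, of which 3 were higher and 3 lower in the butyrate libraries, 0 were called by limma, and the median log2 difference was -0.01. Tap2, which encodes the partner subunit of Tap1 and neighbours Psmb8, had 5.77 ± 1.67 RPKM in butyrate libraries and 5.40 ± 0.995 RPKM in vehicle libraries (SD, n = 3 each), a log2 difference of 0.07 (limma adjusted p = 0.94). Brd2, which encodes a BET protein that reads histone acetylation, gives its name to the region of 8197 bp that also holds an H2-DMa start. It had 5.15, 4.69 and 5.34 RPKM in S4, S5 and S6, against 5.57, 5.80 and 5.53 RPKM in S1, S2 and S3. The means were 5.06 ± 0.333 RPKM in butyrate libraries and 5.64 ± 0.147 RPKM in vehicle libraries (SD, n = 3 each). Every butyrate library was below every vehicle library there, with a log2 difference of -0.13 ± 0.08 (SE; limma adjusted p = 0.74). A second region of Brd2, with a mean of 15.2 reads, was also lower without overlap. It had 0.857 ± 0.140 RPKM in butyrate libraries and 1.39 ± 0.191 RPKM in vehicle libraries (SD, n = 3 each). Its log2 difference was -0.37 (limma adjusted p = 0.70). How many of all regions lie lower without overlap was not counted. The region of H2-DMb2, a class II exchanger chain, had 1.44 ± 0.516 RPKM in butyrate libraries and 0.828 ± 0.488 RPKM in vehicle libraries (SD, n = 3 each), a log2 difference of 0.43 (limma adjusted p = 0.72).

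**Figure D4:**
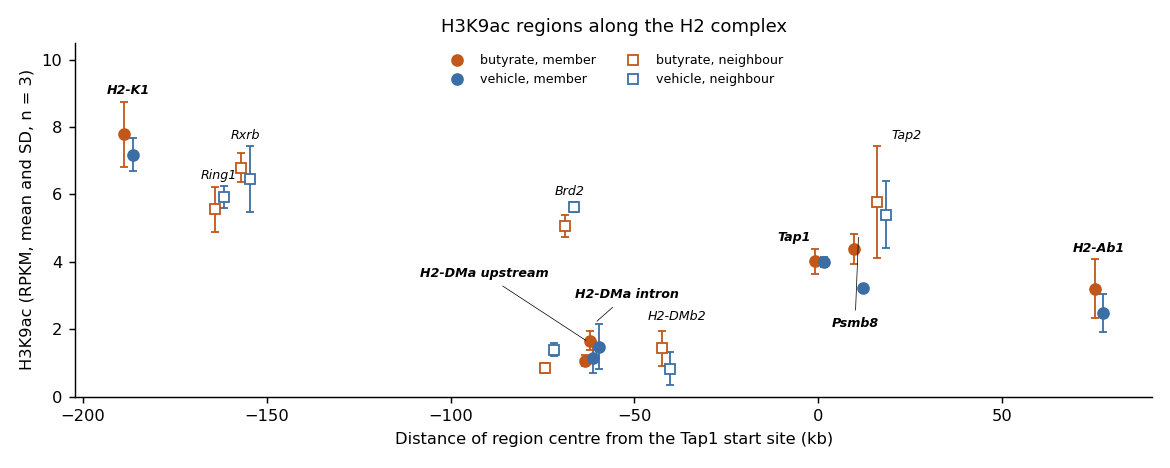
Mean H3K9ac (RPKM, SD of 3 libraries) of the member regions (filled circles) and the 6 other regions (open squares) along the H2 complex, by distance from the Tap1 start in kb, butyrate in orange and drawn slightly left of vehicle in blue. The unlabelled low pair near the H2-DMa regions is a second region of Brd2. Psmb8 shows a gap between the groups, with 4.39 RPKM in butyrate libraries and 3.22 RPKM in vehicle libraries, while Tap1 and Tap2 on either side overlap.

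The map along the H2 complex sets Psmb8, with a log2 difference of 0.35, between Tap1 at 0.00 and Tap2 at 0.07. Differences between neighbouring regions were not tested.

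Other genes of the pathway were read from lists with 1 region per gene, the nearest to its start within 5 kb. Of 17 class I processing genes, 14 had a tested region, with 8 higher, 6 lower, 0 called by limma and a median log2 difference of 0.01. H2-M3, a non-classical class I chain, had the smallest p among those higher, with 2.81 ± 0.383 RPKM in butyrate libraries and 2.25 ± 0.603 RPKM in vehicle libraries (SD, n = 3 each; log2 difference 0.24, limma adjusted p = 0.74). Pdia3, the ERp57 chaperone of the peptide loading complex, had the smallest p among those lower, with 3.20 ± 0.274 RPKM in butyrate libraries and 4.04 ± 0.292 RPKM in vehicle libraries (SD, n = 3 each; log2 difference -0.26, limma adjusted p = 0.64). Psmb10, the remaining immunoproteasome subunit, had 5.30 ± 0.880 RPKM in butyrate libraries and 5.21 ± 0.345 RPKM in vehicle libraries (SD, n = 3 each; log2 difference 0.01, limma adjusted p = 0.99).

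The standard 20S subunits were represented by 2 of 3 genes, 1 higher and 1 lower, with 0 called. Psmb5, the subunit that Psmb8 replaces, had 4.78, 5.18 and 5.35 RPKM in S4, S5 and S6, against 4.72, 3.71 and 4.23 RPKM in S1, S2 and S3. Its butyrate libraries were all above its vehicle libraries, as at Psmb8, with a log2 difference of 0.23 ± 0.10 (SE; limma adjusted p = 0.65). Psmb7 had a log2 difference of -0.18 ± 0.10 (SE; limma adjusted p = 0.71).

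Of 12 class II genes, 4 had a tested region, with 3 higher, 1 lower, 0 called and a median of 0.17. H2-DMb2 had the smallest p among those higher, and Ctss, cathepsin S, was the lower gene, with a log2 difference of -0.11 ± 0.14 (SE; limma adjusted p = 0.87). Of 20 regulators of MHC genes, 19 had a tested region, with 8 higher, 11 lower, 0 called and a median of -0.03. Nfyc, a chain of the Y box factor NF-Y, had 0.06 ± 0.08 (SE; limma adjusted p = 0.87), and Ifngr2, a chain of the interferon-gamma receptor, had -0.17 ± 0.13 (SE; limma adjusted p = 0.78). All 19 log2 differences lay between -0.17 and 0.06.

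**Figure D5:**
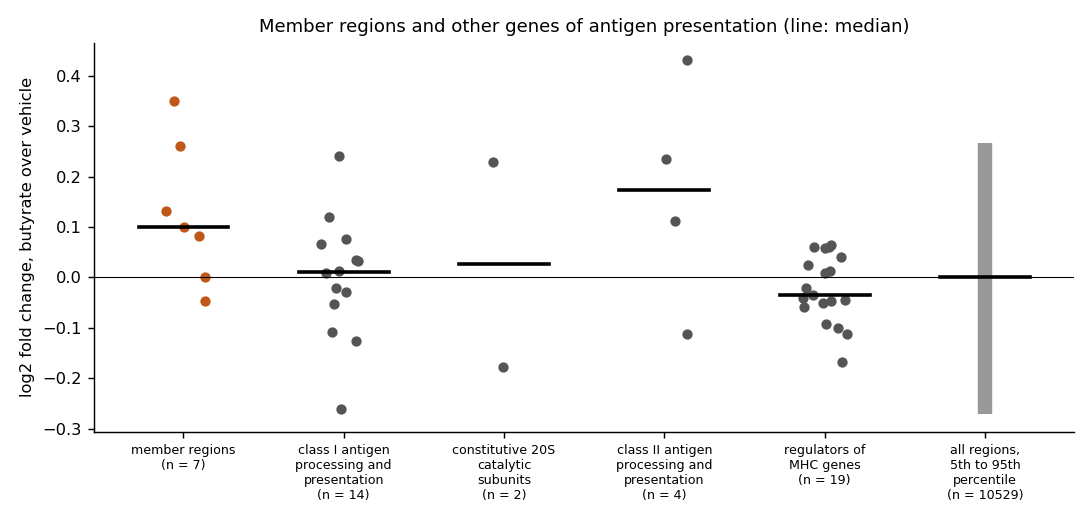
Log2 fold change, butyrate over vehicle, of the 7 member regions tested (orange) and of the regions of other pathway genes (grey points), with medians as black lines and the 5th to 95th percentile of all 10529 regions as a grey bar. Medians are 0.10 for the members, 0.01 for class I processing, 0.03 for the standard 20S subunits, 0.17 for class II, -0.03 for the regulators and 0.00 for all regions.

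The plot of the lists shows that nearly all pathway genes lay within the range of most regions. Psmb8 and H2-DMb2 were the points above the 95th percentile of 0.27, and no point was below the 5th percentile of -0.27.

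Averaged over the 7 tested member regions, the library-centred log2 values were 0.04, 0.01 and 0.13 in S4, S5 and S6, against -0.15, -0.07 and 0.04 in S1, S2 and S3. Butyrate library S6 was the highest and vehicle library S1 the lowest, and S3 lay close to S4. Among 5526 other regions with at least 100 mean reads, the 5 whose profile over the 6 libraries was most like this one were those of AU040320, Fbxo8, Fam53c, 9130230L23Rik and Dnaja2. Their root mean square differences from the members' profile were 0.0197 to 0.0265 on the log2 scale, against a median of 0.139 over all candidates.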

How the data were processed

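H3K9ac was measured in 3 butyrate and 3 vehicle libraries of 100 bp paired-end reads. Per the submitters' processing notes, mm10, STAR, Picard, HOMER and edgeR were used. Their versions, and the way regions were called and merged, are not given in these sources. The deposited RPKM values are read densities per kilobase of region, scaled by the authors to an effective library size. The group means in CPM that the authors deposited equal mean RPKM multiplied by region length in kb. The authors also deposited a log2 fold change, a p-value and its adjustment per region. Coordinates are as deposited, with the starting base (0 or 1) not stated.

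From RPKM, log2(RPKM + 1) was fitted with limma 3.58.1 in R 4.3.3 (intensity trend, robust) for regions with a mean of at least 1 RPKM, and Benjamini-Hochberg adjusted over all of them. Column names give the group of each library but not its replicate number. RPKM times length and effective library size gave whole reads for 100% of values within 0.01 reads, and these were fitted with voom. Sequences came from RefSeq (GRCm38.p6), searched with Python 3.11.15. The model code was tested on simulated data. Members, lists, markers and motifs were chosen with earlier results of these data known. Named list genes are those with the smallest p in each direction. Psmb10, Tap2 and Brd2 were named after their values were seen. The voom errors include spread between libraries, pooled over regions, and not counting error alone.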

Additional observations from a re-analysis of the deposited data

How the results depend on the processing

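No paired analysis was possible because the columns carry no replicate numbers. The count of member regions called was 0 under every alternative run: pseudocounts of 0.5 and 0.1, no filter, 3 other scalings, voom, an adjusted p of 0.1 and each library left out. The count over all regions was 0 by limma, but 16 by voom over all regions and 9 by voom on at least 25 mean reads; the cause was not tested. Without 1 library at a time, the limma log2 difference was 0.29 to 0.41 for Psmb8, 0.02 to 0.18 for H2-K1, 0.06 to 0.12 for B2m, 0.04 to 0.14 for the H2-L region and 0.12 to 0.42 for H2-Ab1. Signs turned at 3 regions, whose differences were within their errors. Tap1 ranged from -0.055 without S4 to 0.054 and was -0.021 without S1, and by voom it was -0.058 without S4 and -0.020 without S1. The H2-DMa upstream region ranged from -0.21 to 0.093 (without S1) and was 0.015 without S5, and the H2-DMa intron ranged from -0.093 without S1 to 0.32. The H2-L reading and voom with libraries left out were added after the data were seen. The H2-DMa and Nlrc5 regions have under 25 mean reads and the widest intervals of the members.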

Other observations

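The table held 9 regions named for H2 genes outside the members and lists, chosen here after their values were seen. Among them is the H2-L region, already described above for its H2-D1 start and counted here with those higher. All 9 were tested, with 4 higher, 5 lower, 0 called by limma and a median log2 difference of -0.06. By limma, 1 of the 9 had an unadjusted p under 0.05, against 765 of the 10529 regions tested. The region of H2-Bl, a class I gene, had 4.78, 5.03 and 5.51 RPKM in butyrate libraries S4, S5 and S6, against 6.59, 7.51 and 5.61 RPKM in vehicle libraries S1, S2 and S3. Every butyrate library was below every vehicle library, with a log2 difference of -0.30 ± 0.10 (SE; limma unadjusted p = 0.0083, adjusted p = 0.57). H2-Q2 had 4.76 ± 0.0566 RPKM in butyrate libraries and 5.45 ± 0.397 RPKM in vehicle libraries (SD, n = 3 each), also without overlap, with a log2 difference of -0.16 ± 0.08 (SE). Whether reads were shared between these and other H2 genes was not measured. How many of all regions lie lower in every butyrate library was not counted.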
